A study of Mus musculus with 6 samples.

Results

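The angiopoietin-Tie and VEGF genes described here are 10 transcripts that set how leaky the walls of small blood vessels are: Angpt1, Angpt2, Tek, Tie1, Ptprb, Vegfa, Pgf, Kdr, Flt1 and Nrp1. They were taken by name, and every probe whose RefSeq transcript belongs to one of them was collected, which gave 15 of the 56605 probes on the array. Each gene is given by its brightest probe. All 10 were well above background on all 6 arrays, and all 10 were among the 32456 genes and unnamed probes tested.

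The RNA came from whole lungs of 6 male C57BL6 mice aged 10 weeks. All 6 had gone 16 h without food and had then received 20 mg/kg of lipopolysaccharide (endotoxin, from the outer membrane of bacteria) into the peritoneum. At 3 h and 24 h after that injection, 3 mice received saline and 3 received recombinant antithrombin, the plasma inhibitor of thrombin, at 750 IU/kg, and lungs were taken at 30 h. Each array holds 1 mouse. Mice without endotoxin were not analysed here, and each difference is antithrombin minus saline under endotoxin. On every array, 12 of 12 alveolar type 2 cell markers and 18 of 18 shared endothelial markers were well above background. Between 69.8% and 72.1% of all probes were too, so this is only a weak check of the lung label.

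Angiopoietin-1, made by cells around the vessel, binds the endothelial receptor Tie2 (gene Tek) and keeps junctions closed. Angiopoietin-2, stored in endothelial cells, competes for the same receptor and is known as a marker of leak in sepsis. The phosphatase VE-PTP (gene Ptprb) removes phosphate from Tie2, and VEGF-A opens junctions through VEGFR2 (gene Kdr), while VEGFR1 (gene Flt1) binds VEGF-A and placental growth factor (gene Pgf) and can act as a decoy.

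None of the 10 genes passed the adjusted threshold of 0.05 (limma, Benjamini-Hochberg over all genes tested), where 0.00616% of all genes tested passed, 0.00308% as higher and 0.00308% as lower. The smallest adjusted p was 0.188, for Ptprb, and the largest 0.962, for Flt1. At an unadjusted p under 0.05 only Ptprb passed, 1 of 10, against 21.6% of all genes (8.73% higher, 12.9% lower). The groups did not overlap in 3 of 10, against 28.9% of all genes, so this share was near the background. Angpt1 and Vegfa were the 2 higher (10.7% of all genes) and Ptprb the 1 lower (18.1%). Differences were positive in 5 genes and negative in 5 (43.0% and 57.0% of all genes), with a median log2 difference of 0.03 against -0.05 over all genes. Signals below are log2 values relative to the 75th percentile of the array, which compare mice for 1 probe but not 1 probe with another. With 3 arrays a group, precision is limited by their number.

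**Figure D1:**
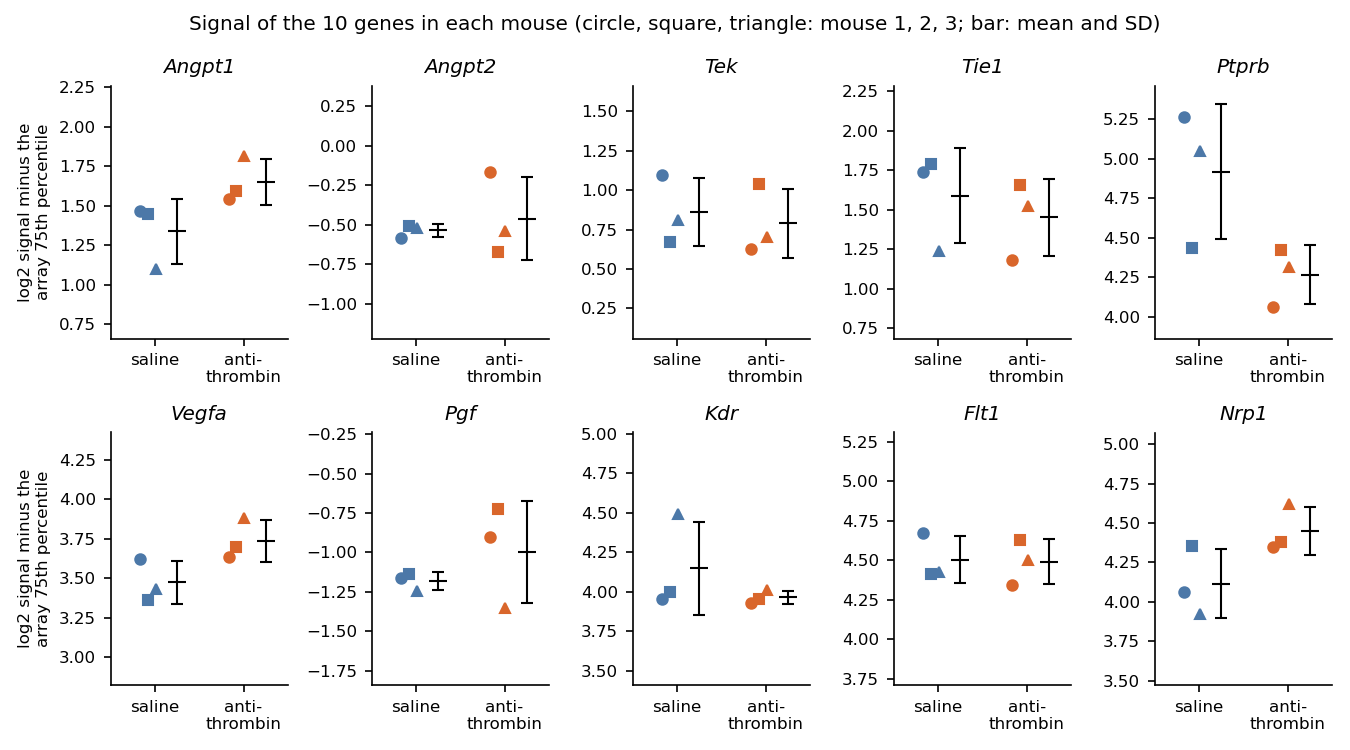
Log2 signal relative to the 75th percentile of the array (vertical axis) for each of the 10 genes in each mouse, saline in blue and antithrombin in orange, with the group mean and SD as a bar; every panel spans the same log2 width. Ptprb had the largest gap between group means, and its lowest saline mouse (4.44) lay next to its highest antithrombin mouse (4.42).

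Arrays can differ as a whole. On the first principal component over all genes tested, which held 51.9% of the variance, saline mice 1 and 3 lay at -48.3 and -62.4, saline mouse 2 at 7.86 and the antithrombin mice between 24.9 and 49.5. Without saline mouse 2, 10.5% of all genes passed the adjusted threshold, so calls that turn on it are given with and without it. All 6 arrays were on 1 slide.

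Among the ligands of Tie2, Angpt1 leaned higher after antithrombin. Its log2 signal was 1.46, 1.45 and 1.10 in saline mice 1, 2 and 3 and 1.54, 1.59 and 1.81 in antithrombin mice 1, 2 and 3. Every antithrombin mouse was above every saline mouse, by a gap of 0.08 at the nearest. The log2 difference was 0.31 (SE 0.15, 95% interval -0.03 to 0.66), a 1.24-fold ratio, which did not pass (limma, adjusted p = 0.26). Without saline mouse 3, the lowest, the difference was 0.20.

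Angpt2 did not separate the groups. It stood at -0.58, -0.51 and -0.52 in the saline mice and at -0.17, -0.67 and -0.54 in the antithrombin mice. The saline mice lay close together (SD 0.04, n = 3), while antithrombin mouse 1 was highest and antithrombin mouse 2 lowest of all 6. It differed by 0.07 on the log2 scale (95% interval -0.28 to 0.43; limma, adjusted p = 0.787), and it was -0.07 without antithrombin mouse 1. Within an array, Angpt2 less Angpt1 averaged -1.87 ± 0.22 (SD, n = 3) after saline and -2.11 ± 0.35 (SD, n = 3) after antithrombin. That difference of -0.24 was within the spread of the mice (exact permutation test, two-sided, p = 0.4, where 0.1 is the smallest p that 3 against 3 can give).

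The receptors of this arm differed little. Tek, the receptor for both angiopoietins, stood at 1.09, 0.67 and 0.81 in the saline mice and at 0.62, 1.04 and 0.71 in the antithrombin mice. Its groups covered almost the same range, with a log2 difference of -0.07 (95% interval -0.46 to 0.32; limma, adjusted p = 0.817). The sign turned without saline mouse 1 (0.05) or antithrombin mouse 1 (0.01).

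Tie1, the partner receptor that joins Tie2 in a complex, stood at 1.74, 1.79 and 1.24 in the saline mice and at 1.18, 1.66 and 1.52 in the antithrombin mice. The low mice were saline mouse 3 and antithrombin mouse 1, so the groups overlapped widely. They differed by -0.14 on average (95% interval -0.61 to 0.33; limma, adjusted p = 0.698), and -0.31 without saline mouse 3.

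Ptprb, the phosphatase of Tie2 and of the VE-cadherin complex, had the largest difference of the 10. Its log2 signal was 5.26, 4.44 and 5.05 in saline mice 1, 2 and 3 and 4.06, 4.42 and 4.31 in the antithrombin mice. Saline mice 1 and 3 were high, and saline mouse 2 lay 0.02 above the highest antithrombin mouse. The log2 difference was -0.65 (SE 0.23, 95% interval -1.19 to -0.11), a 1.57-fold lower mean, with an unadjusted p of 0.0253 and an adjusted p of 0.188 (limma). Among all genes tested, 8.96% had a larger difference in either direction.

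The Ptprb call rested on saline mouse 2. Without it the log2 difference was -0.89 (95% interval -1.27 to -0.51), 1.85-fold lower, and passed the threshold (limma, adjusted p = 0.0331), when 5.88% of all genes were also called lower. That array resembled the antithrombin arrays more than the other saline arrays did, and its removal brings the background up from 0.00308% lower. The difference was -0.48 without saline mouse 1.

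**Figure D2:**
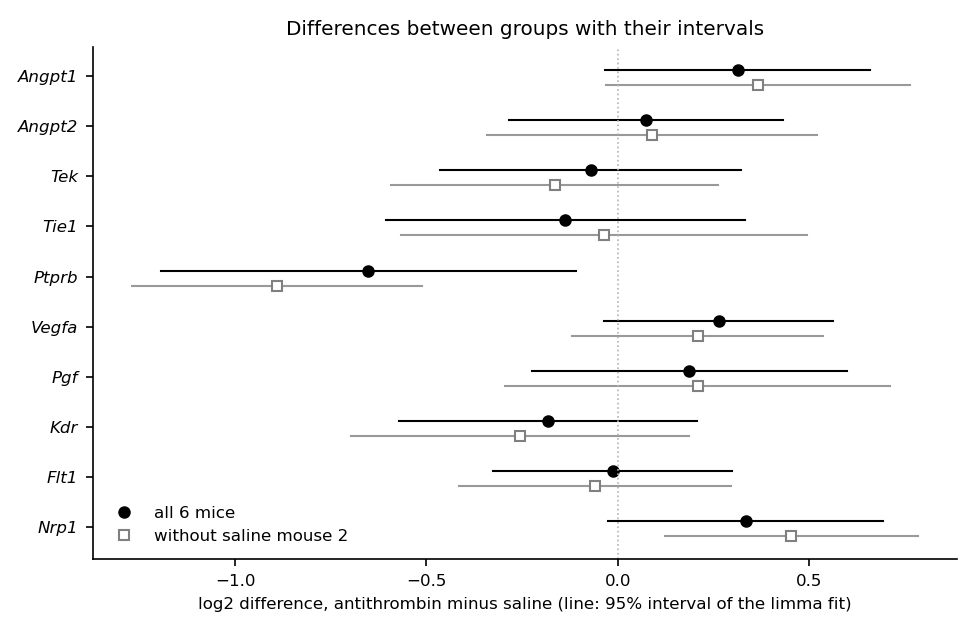
Log2 difference, antithrombin minus saline (horizontal axis), with the 95% interval of the limma fit for each gene, from all 6 mice (black) and without saline mouse 2 (grey squares). With all 6 mice only the interval of Ptprb excludes 0, and without saline mouse 2 those of Ptprb and Nrp1 do.

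The 250 bases before and 50 after the start of 4 VEGF-side genes are shown, of 7 members with a RefSeq entry, because Vegfa and Nrp1 leaned higher while Kdr and Flt1 did not. They are RefSeq sequences on GRCm38.p6, at chr17:46032328-46032627 (minus strand) for Vegfa, chr8:128358823-128359122 (plus) for Nrp1, chr5:75978406-75978705 (minus) for Kdr and chr5:147725962-147726261 (minus) for Flt1. Capitals mark matches, on either strand, to AGGAAG (an ETS factor core), GGGCGG (a GC box), ACGTG (a hypoxia-inducible factor core) and AGATAA (bound by GATA factors).
Vegfa: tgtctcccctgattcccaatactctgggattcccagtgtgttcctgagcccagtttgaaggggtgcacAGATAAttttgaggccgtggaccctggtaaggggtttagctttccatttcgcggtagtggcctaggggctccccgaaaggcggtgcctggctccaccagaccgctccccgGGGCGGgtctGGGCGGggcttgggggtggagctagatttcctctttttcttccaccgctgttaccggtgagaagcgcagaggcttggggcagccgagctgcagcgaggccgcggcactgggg
Nrp1: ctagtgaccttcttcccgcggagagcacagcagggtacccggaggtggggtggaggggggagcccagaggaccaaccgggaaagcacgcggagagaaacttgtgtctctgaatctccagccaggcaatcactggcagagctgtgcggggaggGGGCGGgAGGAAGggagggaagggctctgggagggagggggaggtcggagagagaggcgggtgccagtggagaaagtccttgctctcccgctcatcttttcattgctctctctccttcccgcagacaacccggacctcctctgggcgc
Kdr: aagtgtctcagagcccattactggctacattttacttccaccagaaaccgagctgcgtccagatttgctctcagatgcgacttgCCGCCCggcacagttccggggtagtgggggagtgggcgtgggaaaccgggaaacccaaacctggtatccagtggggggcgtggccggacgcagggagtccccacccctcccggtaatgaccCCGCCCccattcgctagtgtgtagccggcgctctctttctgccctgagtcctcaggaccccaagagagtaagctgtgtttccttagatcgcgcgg
Flt1: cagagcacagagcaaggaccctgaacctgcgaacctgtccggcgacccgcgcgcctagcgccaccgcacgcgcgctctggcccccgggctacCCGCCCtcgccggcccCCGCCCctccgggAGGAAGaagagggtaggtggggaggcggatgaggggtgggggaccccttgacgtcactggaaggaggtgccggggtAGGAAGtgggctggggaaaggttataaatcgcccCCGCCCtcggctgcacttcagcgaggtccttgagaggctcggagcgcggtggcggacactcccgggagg
Vegfa held 2 GC boxes and 1 GATA match, and Nrp1 held 1 GC box and 1 ETS match 1 base apart. Kdr held 2 GC boxes and Flt1 held 3, with 2 ETS matches. None of these 4 windows held ACGTG. RefSeq lists a second Vegfa start, at chr17:46025114-46025413 (minus strand, not printed), whose window held 1 match to ACGTG and 1 GC box. Of 32544 mouse promoter windows of this length, 35.9% held GGGCGG, 35.1% AGGAAG, 19.7% ACGTG and 11.2% AGATAA. The matches are a description of these letters, and those in the printed windows did not part the 2 genes that leaned higher from the other 2.

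On the VEGF side, Vegfa, the main ligand, leaned higher. The brightest of its 4 probes stood at 3.63, 3.36 and 3.43 in the saline mice and at 3.63, 3.70 and 3.88 in the antithrombin mice. The groups touched, saline mouse 1 lying 0.0067 below antithrombin mouse 1. The log2 difference was 0.26 (SE 0.13, 95% interval -0.04 to 0.56; limma, adjusted p = 0.269).

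The Vegfa probes did not move alike. Probe A_51_P482552, on the same transcript, stood at 1.57, 1.45 and 1.73 after saline and at 1.87, 2.01 and 2.23 after antithrombin, and its groups were separated. Its log2 difference was 0.45 (95% interval 0.12 to 0.79; unadjusted p = 0.0144, adjusted p = 0.165 over 40522 probes, limma). Probe A_52_P249424 had a difference of 0.08 and the dimmest, A_55_P2741794, of -0.09, each with overlapping groups. The mean of the 4 probes gave 0.18 (limma, adjusted p = 0.452).

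Pgf, the ligand of VEGFR1, was dim and scattered after antithrombin. It stood at -1.16, -1.14 and -1.25 in the saline mice and at -0.90, -0.73 and -1.35 in the antithrombin mice. Antithrombin mice 1 and 2 were above every saline mouse and antithrombin mouse 3 was below them all. The mean was 0.19 higher on the log2 scale (95% interval -0.22 to 0.60; limma, adjusted p = 0.534), 0.37 without antithrombin mouse 3 and 0.05 without antithrombin mouse 2.

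Kdr, the main signalling receptor for VEGF-A, stood at 3.95, 4.001 and 4.49 in the saline mice and at 3.93, 3.96 and 4.01 in the antithrombin mice. Saline mouse 3 alone stood apart, and the other 5 mice lay within a narrow band. The means differed by -0.18 on the log2 scale (95% interval -0.57 to 0.21; limma, adjusted p = 0.521), and -0.01 without saline mouse 3.

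Flt1 had the smallest difference of the 10. It stood at 4.68, 4.41 and 4.42 in the saline mice and at 4.34, 4.63 and 4.50 in the antithrombin mice, with ranges that nearly coincide. The log2 difference was -0.01 (95% interval -0.33 to 0.30; limma, adjusted p = 0.962). A shift of up to 1.23-fold higher or 0.798-fold lies inside that interval, so a small change is not excluded. Its sign turned with quantile normalisation (0.03) and with median scaling (0.0052).

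Nrp1, the co-receptor that presents VEGF-A to VEGFR2, leaned higher. The brightest of its 3 probes stood at 4.06, 4.35 and 3.93 in the saline mice and at 4.35, 4.38 and 4.62 in the antithrombin mice. Saline mouse 2 lay just above antithrombin mouse 1, and saline mice 1 and 3 lay below all others. The log2 difference was 0.33 (SE 0.15, 95% interval -0.02 to 0.69; limma, adjusted p = 0.25), and 0.45 without saline mouse 2 (adjusted p = 0.0829).

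The Nrp1 probe A_65_P18547 gave a log2 difference of 0.38 (95% interval -0.01 to 0.76). The third probe, A_52_P371237, which was dim, gave -0.19 (95% interval -0.53 to 0.16). All 3 name the same transcript, and their mean gave 0.17 (limma, adjusted p = 0.378).

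**Figure D3:**
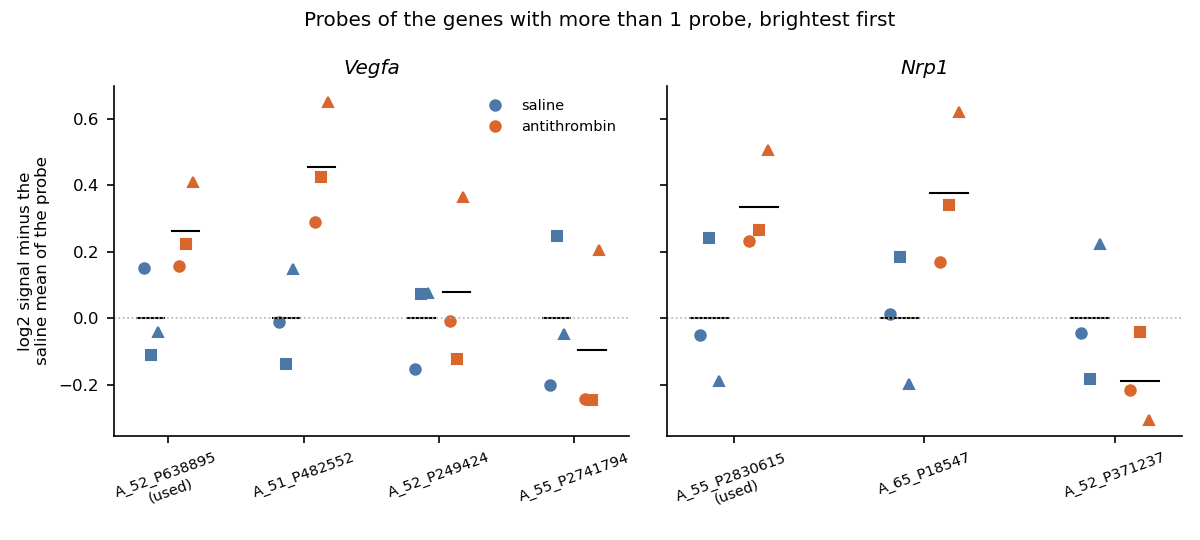
Log2 signal less the saline mean of each probe (vertical axis) for the 4 Vegfa and 3 Nrp1 probes, brightest at the left, with each mouse as a point (circle, square and triangle for mice 1, 2 and 3) and the group mean as a line. The 2 brightest probes of each gene had higher means after antithrombin, and the dimmest of each had a lower mean.

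Since most of these genes are expressed in endothelium, their signals were set beside the endothelial markers of the same array. In whole lung, fewer endothelial cells and less RNA per cell cannot be told apart. Of 18 shared endothelial markers 15 had a negative difference and 0 passed the adjusted threshold (limma; unadjusted p under 0.05 in 4, all lower), with a median log2 difference of -0.13. Of all genes, 57.0% were negative and 12.9% lower at that p, with a median of -0.05. The mean level of the 18 markers ran from 3.36 to 3.58 in saline mice and from 3.22 to 3.47 in antithrombin mice. The junction cadherin Cdh5 differed by -0.15, the adhesion molecule Pecam1 by -0.06 and the claudin Cldn5 by -0.28. The transcription factor Erg (-0.55) and the receptor Robo4 (-0.45) had groups that did not overlap and the smallest p of the list (limma, adjusted p = 0.155 and 0.186). Medians of the sub-types were negative too, but each list held members of both signs, and no gene of them passed with all 6 mice. The median was -0.28 for general capillary markers (8 of 10 negative), with Gpihbp1, which anchors lipoprotein lipase, at -1.65, Plvap at -0.62 and the chemokine Cxcl12 at 0.43. It was -0.19 for aerocyte markers (7 of 9 negative), where Tbx2 stood at -0.70 and Car4 at 0.32. Arterial markers had a median of -0.24 (5 of 8 negative), with Bmx at -0.43, Mgp at -0.39 and Gja5 at 0.74. Venous markers also had -0.24 (6 of 8 negative), with Prss23 at -1.07, Slc6a2 at -0.91 and Bst1 at 0.58. Lymphatic markers had -0.19 (5 of 8 negative), with Lyve1 at -0.95 and the chemokine Ccl21a, separated higher, at 0.90. Gja5, Bst1 and Cxcl12 were chosen after their values were seen. Without saline mouse 2, Gpihbp1, Tbx2, Bmx, Prss23, Slc6a2 and Lyve1 passed as lower and Bst1 and Ccl21a as higher (limma, adjusted p between 0.0243 and 0.0484). At that setting 10.5% of all genes passed (5.88% as lower). Apart from Bst1, these genes were named for the smallest p of their list, so their passing is no measure of the lists.

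Relative to the mean of those 18 markers, Nrp1 was 0.49, 0.82 and 0.57 in the saline mice and 1.12, 0.91 and 1.29 in the antithrombin mice. Every antithrombin mouse was above every saline mouse, with a difference of 0.48 (exact permutation test, two-sided, p = 0.1, the smallest that 3 against 3 can give, and 0.3 adjusted over 9 within-array comparisons). With the mean of the 3 Nrp1 probes the difference was 0.32 (exact p = 0.1). Flt1 was also separated, at 1.10, 0.87 and 1.07 against 1.12, 1.16 and 1.16, a difference of 0.14 (exact p = 0.1, adjusted 0.3). Without saline mouse 2 the Flt1 difference was 0.07. By its own signal Flt1 differed by -0.01 with overlapping groups, so the relative difference arises from the subtracted marker mean. Nrp1 by its own signal differed by 0.33, also with overlapping groups, so part of its relative difference arises in the same way. Ptprb was 1.69, 0.90 and 1.69 after saline and 0.83, 0.95 and 0.98 after antithrombin, so saline mouse 2 lay among the antithrombin mice (difference -0.50, exact p = 0.3, adjusted 0.675; -0.77 without saline mouse 2). For Tek, Tie1 and Kdr the relative difference was 0.08, 0.01 and -0.03 (exact p of 0.8, 0.8 and 1).

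Ligands were also compared with their receptors inside each array. Vegfa less Flt1 was -1.05, -1.05 and -0.99 in the saline mice and -0.71, -0.93 and -0.62 in the antithrombin mice. The groups were separated, by 0.28 on average (exact permutation test, two-sided, p = 0.1, adjusted 0.3). With the mean of the 4 Vegfa probes the difference was 0.19 and the separation was lost (exact p = 0.4). Angpt2 less Tek differed by 0.15 with overlapping groups (exact p = 0.7).

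**Figure D4:**
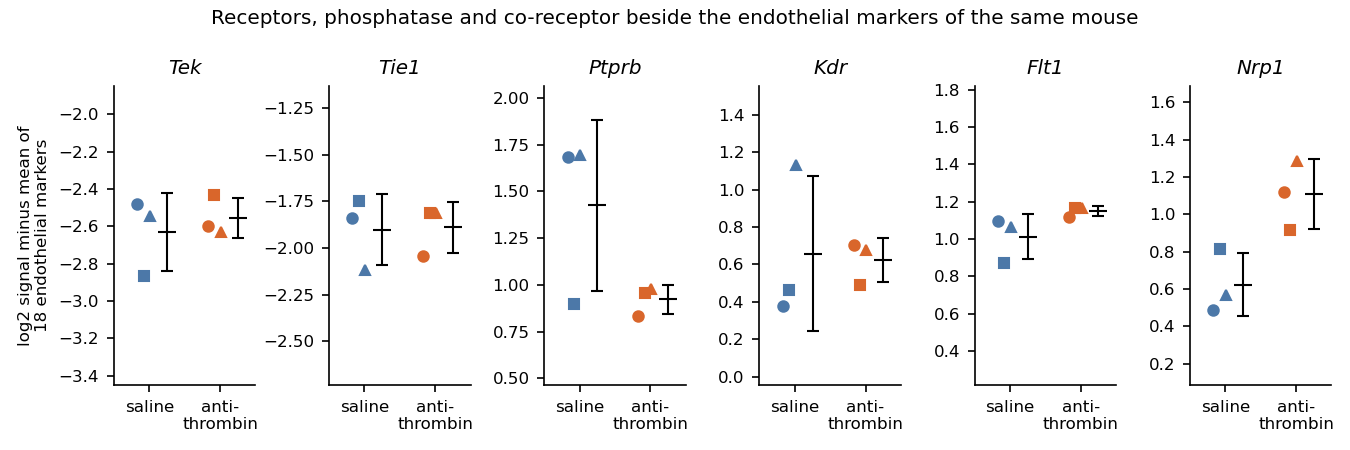
Log2 signal of 6 genes less the mean log2 signal of 18 endothelial markers of the same array (vertical axis, same width in every panel), by mouse, with group mean and SD. Nrp1 and Flt1 were separated between groups on this relative scale, and Ptprb overlapped through saline mouse 2. By their own signal the groups overlapped for Nrp1 and Flt1 and did not for Ptprb.

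Other genes of the pathway were read from 6 lists. Of 128 genes 127 were tested and 0 passed the adjusted threshold (smallest adjusted p = 0.151, limma). At an unadjusted p under 0.05 29 passed, of which 8 were higher and 21 lower. That is 22.8% of the 127, near the 21.6% of all genes (8.73% higher, 12.9% lower). The median log2 difference was -0.09. Without saline mouse 2, 5 passed the adjusted threshold as higher and 8 as lower, where 10.5% of all genes passed. The genes named below from these lists had the 3 smallest p of their list. Their separation or passing is therefore no measure of the lists.

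Among 17 other ligands, receptors and co-receptors, 9 differences were positive and 8 negative, with a median of 0.04. Adamts3, the protease that helps process VEGF-C, differed by -0.87 with groups that did not overlap (limma, adjusted p = 0.155; -1.08 and 0.0293 without saline mouse 2). The VEGFR1 ligand Vegfb stood at 0.22 and the semaphorin receptor Plxnd1 at -0.22, both with overlapping groups. Among 35 signal transducers below Tie2 and VEGFR2, 24 differences were negative, with a median of -0.11, and 8 had an unadjusted p under 0.05 (1 higher). The shares over all genes were 57.0% negative and, at that p, 21.6% in either direction (8.73% higher, 12.9% lower). Foxo1, the transcription factor that Tie2 signalling holds out of the nucleus and that drives Angpt2, was 2.70, 2.12 and 2.89 in the saline mice and 1.96, 2.15 and 1.71 in the antithrombin mice. Saline mouse 2 again lay among the antithrombin mice, and the log2 difference was -0.63 (limma, adjusted p = 0.191; -0.85 and 0.0375 without saline mouse 2). The kinase subunit Pik3r1 differed by -0.43 and the kinase Src by -0.38, both with separated groups (adjusted p = 0.171 and 0.179).

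Of 26 junction and barrier genes 20 had a negative difference, with a median of -0.14, and 10 were separated, all lower. An unadjusted p under 0.05 was reached by 5, all lower. Of all genes, 57.0% were negative, 18.1% separated lower and 12.9% lower at that p. Cdh5, Pecam1, Cldn5, Esam and Robo4 are also among the shared endothelial markers, so those lists are not independent. The caveolar coat gene Cav1 differed by -0.59 and the junction adaptor Afdn by -0.63 (limma, adjusted p = 0.179 and 0.161). Without saline mouse 2 Cav1 stood at -0.77 and passed (adjusted p = 0.0393), while Afdn did not (0.0823). Cav1 is also abundant in alveolar type 1 cells, whose markers were lower (12 of 13 negative, median -0.28). Cav1 is itself 1 of those 13 markers, so the 2 values are not independent. The part of those cells in the Cav1 value was not tested.

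Of 16 transcripts known to be induced by VEGF or FoxO1 in endothelium, 11 had a positive difference, with a median of 0.12, and 4 had an unadjusted p under 0.05 (3 higher). For comparison, 43.0% of all genes were positive and 21.6% reached that p (8.73% higher). Dropping single mice moved the list's middle value between 0.03 (saline mouse 3 dropped) and 0.19 (saline mouse 2 dropped). The endothelial selectin Sele was -0.93, -0.06 and -0.71 in the saline mice and 0.55, 0.66 and 1.00 in the antithrombin mice. They differed by 1.30 on that scale (SE 0.24; limma, adjusted p = 0.151). Egr3, an early response factor, differed by 1.56 and Pdgfb, which recruits pericytes, by 0.80 (adjusted p = 0.177 and 0.173). All 3 had separated groups, and all 3 passed without saline mouse 2, at 1.55, 2.01 and 1.08 (limma, adjusted p = 0.0243, 0.0465 and 0.0283). They were named for the smallest p of their list, and 10.5% of all genes passed at that setting. The Egr3 groups were narrowly separated, at -1.58 in saline mouse 2 and -1.56 in antithrombin mouse 1. Sele and Egr3 respond to many inflammatory signals besides VEGF.

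The 20 transcription factors and oxygen sensors had a median of -0.13, with 14 negative. Erg, Tal1, Sox17 and Sox18 of this list are also among the shared endothelial markers. Beside Erg, the oxygen-sensing ligase gene Vhl differed by -0.36 with separated groups and the prolyl hydroxylase gene Egln3, a target of hypoxia-inducible factor, by 0.51 with overlapping ones (limma, adjusted p = 0.178 and 0.208). Without saline mouse 2 Vhl stood at -0.44 and passed narrowly (adjusted p = 0.0493). The 13 genes of shedding and turnover had a median of -0.04. The endocytic adaptor Dab2 differed by 0.66, the gelatinase Mmp9 by 0.50 and the receptor Ephb4 by -0.44, each separated (adjusted p = 0.155, 0.179 and 0.185). Over all genes the groups did not overlap in 28.9%. The Mmp9 groups were narrowly separated, at 1.94 in saline mouse 2 and 1.98 in antithrombin mouse 2. Mmp9 stood at 0.65 without saline mouse 2 (limma, adjusted p = 0.0425), when Dab2 and Ephb4 still did not pass. At that setting 10.5% of all genes passed. Mmp9 is abundant in neutrophils, whose markers were higher (10 of 12 positive against 43.0% of all genes, median 0.35), and their part was not tested.

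**Figure D5:**
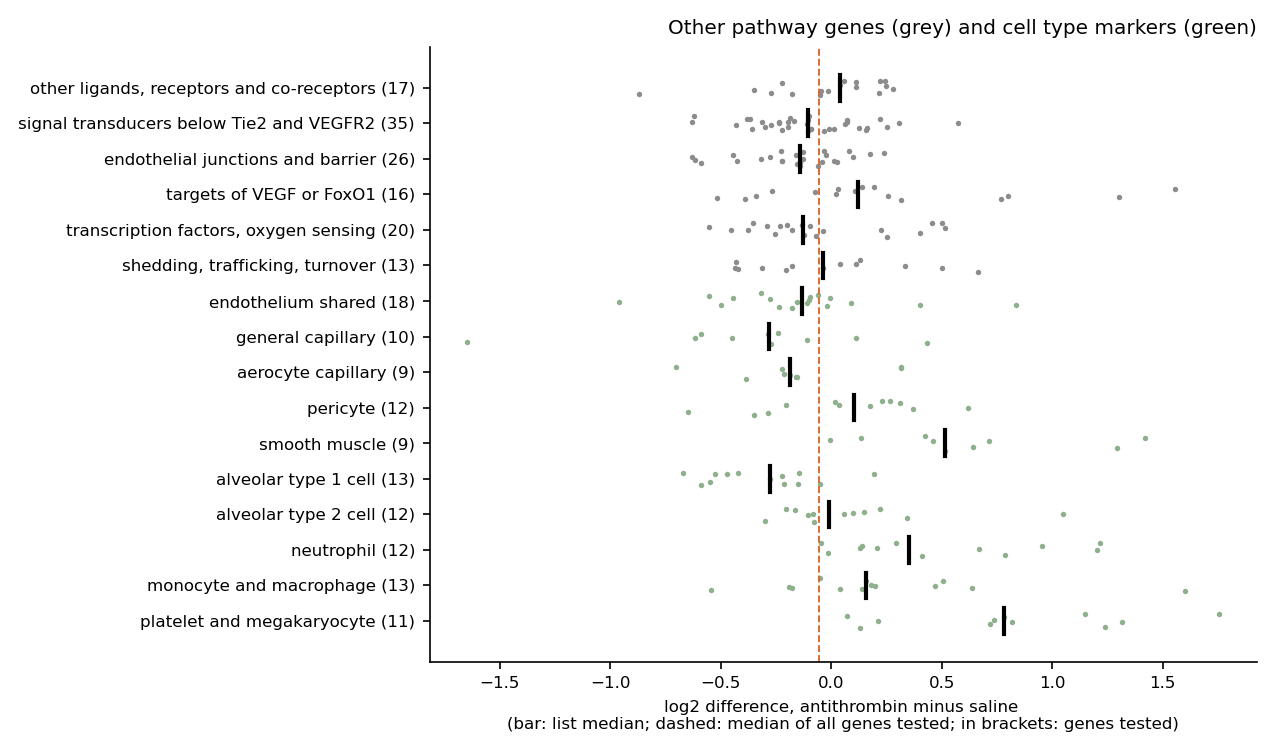
Log2 difference, antithrombin minus saline (horizontal axis), of each tested gene of the 6 pathway lists (grey points) and of 10 marker lists (green points), with the list median as a bar and the median of all genes tested (-0.05) as a dashed line. Junction, endothelial and alveolar type 1 medians lie to the left of the line, and smooth muscle, neutrophil and platelet medians to the right. Some genes stand in several lists, so the lists are not independent.

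The levels of the cell types that make these ligands are given beside them. Angpt1 comes from pericytes, smooth muscle and platelets. Pericyte markers had a median of 0.10 (8 of 12 positive, levels 0.88 to 1.12 after saline and 0.85 to 1.15 after antithrombin), with Cspg4 at 0.62 and Gucy1a1 at -0.35. Smooth muscle markers had a median of 0.52, with 8 of 9 positive and 6 higher at an unadjusted p under 0.05 (limma). Of all genes, 43.0% were positive and 8.73% higher at that p. The smooth muscle levels did not overlap, 1.00 to 1.25 against 1.57 to 1.72. The contractile gene Cnn1 stood at 1.42. Lmod1, 1 of the 8 and 1 of the 6, was well above background on 3 of 6 arrays only, so its difference is not given. Platelet markers were positive in 11 of 11, with none past an unadjusted p of 0.05 (limma). Their median was 0.78, 1.34 without saline mouse 2 and 0.40 with another background correction (normexp). Of the 11, 10 were well above background on every array. The levels of those 10 were low, from -2.08 to -0.61 after saline and from -1.06 to -0.24 after antithrombin. Gp1ba stood at 1.76 and Itga2b at 1.24, and without saline mouse 2 both passed, at 2.74 and 1.89 (limma, adjusted p = 0.0266 and 0.0431), when 10.5% of all genes passed. The part of these cells in the Angpt1 value was not tested.

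Vegfa in lung comes largely from alveolar type 1 cells. The mean level of their markers was lower, 3.38 to 3.47 after saline against 3.00 to 3.21 after antithrombin, with Gprc5a at -0.67 and Hopx at -0.52 (limma, adjusted p = 0.151 and 0.153), while Vegfa leaned the other way. Type 2 markers were split, 6 positive and 6 negative, with 3 separated higher, 2 separated lower and a median of -0.01. Over all genes 10.7% were separated higher and 18.1% lower. The 2 with the smallest p were both higher, Cxcl15 at 1.05 and Lyz2, shared with macrophages, at 0.34. Monocyte and macrophage markers had a median of 0.16, with Cx3cr1 at 1.60 and Adgre1 at 0.64, and among neutrophil markers Camp stood at 1.21 and Padi4 at 0.95. Median differences of the other lists were 0.05 for fibroblast, 0.40 for airway, -0.24 for mesothelium, 0.06 for T and NK cell, 0.27 for B cell and -0.54 for erythroid markers. The last 3 rested on antithrombin mouse 3, without which they were -0.12, -0.08 and 0.02. Without saline mouse 2, Cspg4, Cnn1, Gprc5a, Hopx, Cxcl15, Cx3cr1, Camp and Padi4 passed the adjusted threshold, and Gucy1a1, Lyz2 and Adgre1 did not. All were named for the smallest p of their list, and 10.5% of all genes passed at that setting. The part of myeloid cells in the Vegfa and Nrp1 values was not tested.

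The profile over the 6 mice was compared with 16020 other named genes as the root mean square difference of centred log2 signals, as a description. The 2 nearest genes were Trim16 and Tmem185b for Angpt1 (0.018 and 0.020), Zbtb40 and Gjc3 for Nrp1 (0.028 and 0.029), Zbtb26 and Erap1 for Vegfa (0.035 and 0.043), and Prkcq and Kif26a for Ptprb (0.049 and 0.068). They were Impa2 and Tuba1c for Angpt2, Pdcd1 and AAdacl4fm3 for Tek, Colgalt2 and Rapgef4 for Tie1, Chd2 and Kdm5a for Kdr, Arl13b and Prrg1 for Flt1, and Pkia and Mpp2 for Pgf. With so many candidates and 6 arrays, near profiles arise for any gene.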

How the data were processed

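One-colour Agilent arrays were read for 6 lungs, 1 array per mouse, with groups and mouse numbers from the sample titles. The scanner files were deposited with an intensity for each spot, read by Agilent Feature Extraction 10.7.3.1, per the file headers. The submitters' processing notes give version 9.1, and the difference was not resolved. The deposited value table holds log2 values, and after each probe was centred and each array shifted they matched the scanner files within 0.01 for 100% of probes. Its column medians ran from -0.0369 to 0.0763. How its probes were centred and its arrays scaled is unknown.

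Control and outlier spots were left out, spots of a probe were averaged as log2 processed signal, and the 75th percentile of each array was subtracted. Accessions without version were matched to RefSeq transcripts of GRCm38.p6, naming 32994 of 56605 probes. The array design names another build, so no probe coordinates are given, and those of the promoter windows are on GRCm38.p6. The brightest probe stood for each gene, and genes entered the test when 3 or more arrays flagged them well above background. Between 69.8% and 72.1% of probes passed that flag, and saturated spots numbered 0.

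The 2 groups were compared gene by gene in limma 3.58.1 (lmFit, then eBayes; R 4.3.3) over 32456 genes. The limma p-values are two-sided and were adjusted by Benjamini-Hochberg. They set the difference between groups of 3 mice against the spread between mice, with the variance of each gene drawn toward that of all genes. The script was tested on simulated data. Within-array values used exact permutation tests (scipy 1.17.1). Lists are described by counts and medians. The members, lists and rules were chosen with earlier results of these data known. The rule named all 10 members and their probes, the 3 genes of each pathway list and the 2 of each marker list with the smallest p, Cdh5, Pecam1 and Cldn5, and 2 genes of like profile per member. Not every gene from the marker lists is described. Normexp (offset 50) was planned on the mean pixel signal, but the scanner files used here have no such column, and the median pixel signal was taken instead. Other alternatives were quantile and median scaling, filters, probe rules, the value table, variance models, array weights, blocks and leaving out each mouse.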

Additional observations from a re-analysis of the deposited data

How the results depend on the processing

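Of the 10 genes, Angpt1, Tie1, Ptprb, Vegfa, Kdr, Nrp1 and Pgf kept their sign under all 18 alternatives. The filters, the test of all probes singly, the trended and robust variance and the blocks change only the p-value. Under those the sign could not turn. The 1 call that changed was Ptprb without saline mouse 2 (-0.89, limma, adjusted p = 0.0331; range of its adjusted p over alternatives 0.0331 to 0.409). Leaving out 1 mouse moved the log2 difference over 0.20 to 0.38 for Angpt1, -0.071 to 0.18 for Angpt2, -0.19 to 0.047 for Tek, -0.31 to -0.0005 for Tie1, -0.89 to -0.48 for Ptprb, 0.19 to 0.34 for Vegfa, -0.28 to -0.01 for Kdr, -0.082 to 0.073 for Flt1, 0.24 to 0.45 for Nrp1 and 0.05 to 0.37 for Pgf. The sign of Flt1 also turned with quantile normalisation (0.033) and median scaling (0.0052), and that of Tie1 less endothelial markers with quantile normalisation (-0.0030). Leaving out 1 mouse moved Tek less endothelial markers over -0.040 to 0.15, Tie1 over -0.095 to 0.090, Kdr over -0.17 to 0.20, Ptprb over -0.77 to -0.37, Flt1 over 0.07 to 0.18, Nrp1 over 0.39 to 0.58, and Angpt2 less Tek over -0.083 to 0.38. The cause of these turns was not tested.

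Over all genes, 2 passed the adjusted threshold. The count was 1 with normexp, quantile normalisation, median scaling, no filter, the stricter filter, all probes singly, the trended and robust variance or the array row as a block, and 0 to 3415 when 1 mouse was left out, the highest without saline mouse 2. At an unadjusted p under 0.05 it ran from 4208 (without saline mouse 3) to 10319 when 1 mouse was left out, against 7014. The mouse numbers did not pair the mice: same-numbered mice deviated from their group means with correlations over genes of -0.0096, -0.16 and -0.28, and saline mouse 1 correlated best with antithrombin mouse 3. With the mouse number as a replicate block, 0 genes passed (limma; 5078 at an unadjusted p under 0.05) and Ptprb had an adjusted p of 0.32. List medians under alternatives moved by less than the spread of the mice in 181 cases and by more in 19. No scaling moved the median of all genes by more than 0.033 on the log2 scale.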
